A study of Sparassis latifolia with 18 samples.

Results

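The new genes of Sparassis latifolia are transcribed loci that the authors' transcript assembly added to the genome annotation. They were taken as every row of the deposited expression table whose identifier contains newGene, which gave 115 of 1100 genes. The other 985 genes carry the EVM identifiers of the annotation and served as the comparison. S. latifolia is an edible brown-rot fungus that grows on conifer wood. Mycelium of the strain SP-C was grown in liquid medium and exposed to sterile fresh pine sawdust for different lengths of time, with all cultures harvested together. The groups with pine sawdust inducing (PSI) had it for 1 or 6 hours (1h, 6h) or for 1, 5 or 10 days (1d, 5d, 10d). The control, CK, was the same strain in the same medium with no PSI. Each group had 3 libraries, 18 in all, here named by group and replicate (10d-2, CK-1). One strain was used, so all values hold for that strain.

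Gene prediction on a genome sequence can miss genes that lack a clear reading frame or a known relative. When reads from RNA-seq assemble into a transcript outside the predicted genes, the locus receives a new identifier. Such a locus can be a missed coding gene, a long noncoding RNA or an unpredicted end of a neighbouring gene, and read numbers alone do not tell these apart. The identifiers of the new genes carry numbers between 21 and 1755. No sequence, position or product of a new gene was used here, so no function is given to any of them. The identifiers come from the authors' assembly. Their absence from the RefSeq gene table of another strain (assembly Spalat1) therefore says nothing of function. Whether read counting used the strand is not given in the sources used here, so reads of a new gene and of a gene overlapping it on the other strand cannot be told apart.

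Expression was given as FPKM, fragments scaled by transcript length and by library size, made by the authors. The values in the table summed to between 103912 and 148824 FPKM per library. By group the sums were 104867 to 112124 in CK, 103912 to 112277 at 1h and 143127 to 146310 at 6h. They were 129388 to 132853 at 1d, 133949 to 141562 at 5d and 145948 to 148824 at 10d. The rule that chose these 1100 genes is not stated, so every share below is a share of this table. The study left out 4 libraries, CK-1, 1h-3, 1d-3 and 5d-2, for their correlation with the others. CK-1 was over 2-fold from the mean of CK-2 and CK-3 for 10.4% of the new genes and 13.3% of the EVM genes. For 5d-2 against its kept partners these shares were 10.4% and 12.0%. Tests used the 14 kept libraries, and results with all 18 are given beside them.

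The new genes were expressed at low levels. Their mean FPKM over the 14 kept libraries had a median of 2.05 (quartiles 1.23 and 4.33), against 34.4 (quartiles 9.37 and 95.3) for the EVM genes. Of the 115 new genes, 88 (76.5%) had a mean under 5 FPKM, against 164 of the 985 EVM genes (16.6%). Only 4 new genes reached a mean of 100 FPKM, against 240 EVM genes. All 115 new genes reached an FPKM of 1 in at least 1 library, and 37 of them did so in all 18, against 877 EVM genes. An FPKM of exactly 0 was listed in at least 1 library for 13 new genes and for 15 EVM genes. The spread between kept libraries of one group was also wider for the new genes, with a median SD of 0.24 on the log2(FPKM + 1) scale, against 0.14 for the EVM genes. Among genes with a mean under 5 FPKM, the median SD was 0.26 for new genes and 0.21 for EVM genes.

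New genes were lower with sawdust than without it in most cases. The median FPKM over the 115 new genes lay between 1.39 and 1.95 in the 15 PSI libraries and between 2.83 and 2.99 in the 3 CK libraries, so the groups did not overlap. The median over the EVM genes lay between 26.0 and 34.6 in the PSI libraries and between 25.9 and 29.8 in the CK libraries. These are bulk libraries, so fewer cells of a kind and less RNA per cell cannot be told apart. An FPKM of 1 was reached by 69 to 93 new genes in each PSI library and by 106 to 108 in each CK library. The highest group mean was in CK for 71 of the 115 new genes (61.7%), against 258 of the 985 EVM genes (26.2%). With all 18 libraries these numbers were 74 (64.3%) and 256 (26.0%). For 29 new genes (25.2%) all 15 PSI libraries lay below all 3 CK libraries, against 90 EVM genes (9.14%) and a background of 10.8% of all 1100 genes. The opposite order, with all PSI libraries above all CK libraries, held for 3 new genes (2.61%) and 46 EVM genes (4.67%), with a background of 4.45%. In the 14 kept libraries, the PSI libraries all lay below the CK libraries for 43 new genes (37.4%, background 21%) and all above for 5 (4.35%, background 9.18%).

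**Figure D1:**
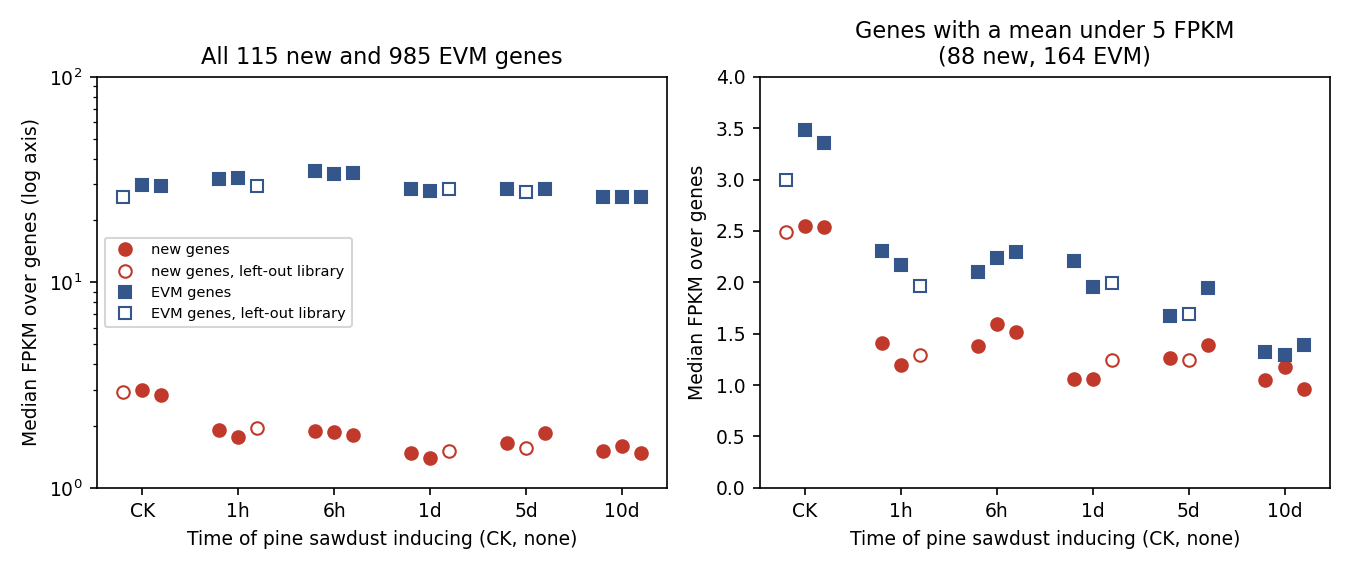
Median FPKM over genes in each of the 18 libraries, by time of pine sawdust inducing, for new genes (circles) and EVM genes (squares), with left-out libraries as open symbols. The left panel (log axis) covers all genes and the right panel those with a mean under 5 FPKM, where PSI libraries lie below CK libraries for both kinds of gene, at 0.96 to 1.60 against 2.49 to 2.55 for new genes.

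Within classes of similar level, the shares of new and EVM genes highest in CK were close. Among genes with a mean under 5 FPKM, 65 of 88 new genes (73.9%) and 117 of 164 EVM genes (71.3%) were highest in CK. Between 5 and 20 FPKM the shares were 26.3% of 19 new genes and 28.4% of 208 EVM genes. At 20 FPKM or more they were 12.5% of 8 and 13.4% of 613. The calls did not follow this in every class. At 10d, 7 of 19 new genes at 5 to 20 FPKM were up (36.8%), against 14.4% of EVM genes of that level, and 5 of 8 at 20 FPKM or more (62.5%), against 25% and 18.5% of all tested genes, by the limma test, whose threshold is given with the calls at each time. Under 5 FPKM at 1d, 30.2% of new genes and 16.9% of EVM genes were down, against 18.3% of all tested genes. In this class the order was the opposite at 5d, with 24.4% and 29.9% (background 22.3%), and at 10d, with 34.9% and 48.1% (background 35%). At 1h the shares down were 9.3% and 3.9% (background 7.44%), and at 6h 11.6% and 11% (background 8.82%). These level classes were formed after the data were seen, some hold few new genes, and the shares are a description with no test. The mean that sets a class includes the 10d libraries, so a gene can be in a higher class through its own rise. newGene_852, at a mean of 4.14 FPKM in the kept CK libraries and 26.3 at 10d, was in the class of 5 to 20. The shares called up in the upper classes thus depend in part on the values that set the class. In the lowest class, the median FPKM per library was 0.96 to 1.60 with PSI and 2.49 to 2.55 in CK for the new genes, and 1.29 to 2.31 with PSI and 3.00 to 3.48 in CK for the EVM genes. In this class, an FPKM of at least 1 was reached in all 3 libraries of the 10d group by 32 of 88 new genes, against 73 in CK. For the EVM genes of this class the numbers were 90 of 164 at 10d and 143 in CK. The part that the choice of genes for the table has in these numbers was not tested.

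**Figure D2:**
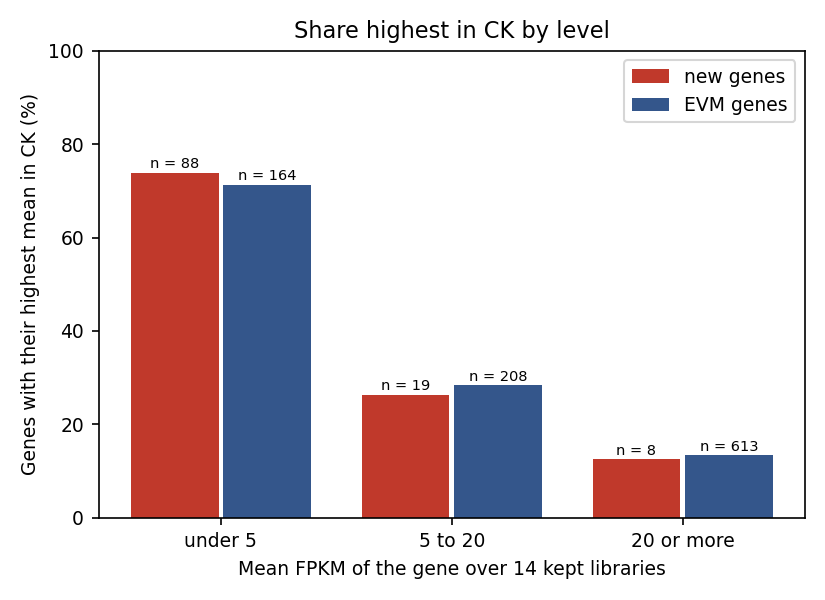
Share of genes whose highest group mean was in CK (percent), by mean FPKM over the 14 kept libraries, for new genes (left bars) and EVM genes (right bars), with the number of genes above each bar. The new and EVM bars are within 3 percentage points of each other in every class, 73.9% and 71.3% under 5 FPKM.

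Tests compared log2(FPKM + 1) with limma over all genes that reached 1 FPKM in 2 or more of the 14 kept libraries. A low gene can pass through CK-2 and CK-3 alone, as newGene_654 did at 1.46 and 1.58, and such a gene can only be lower with sawdust. Of the new genes, 113 passed, and newGene_51 and newGene_1561 did not. A gene was called if its Benjamini-Hochberg adjusted p was below 0.01 and its change exceeded 2-fold on this scale, which understates changes of low genes. Falls were called more often than rises among the new genes at each time. At 1h, 2 new genes were up (1.77%, background of all tested genes 10.6%) and 10 down (8.85%, background 7.44%). At 6h, 6 were up (5.31%, background 13.9%) and 14 down (12.4%, background 8.82%). At 1d, 2 were up (1.77%, background 8.55%) and 37 down (32.7%, background 18.3%). Of these shares, that of falls at 1h was near its background and that of falls at 1d was furthest above it. At 5d, 14 were up (12.4%, background 14.2%) and 27 down (23.9%, background 22.3%). At 10d, 14 were up (12.4%, background 18.5%) and 37 down (32.7%, background 35%). On the FPKM scale, the share of new genes called down was close to the background at 5d and 10d, and their share called up was below it at each time. The median log2 difference of the tested new genes from CK was -0.52 at 1h, -0.48 at 6h, -0.79 at 1d, -0.63 at 5d and -0.78 at 10d. For the EVM genes it was -0.05, 0.09, -0.07, -0.13 and -0.31 at these times, and for all tested genes at 10d -0.44.

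Scaling changed this split. Quantile normalization gives every library one distribution of values and moved the median of all tested genes at 10d to 0.02. After it, 28 new genes were called up at 10d (24.8%, background 23.3%) and 9 down (7.96%, background 21.3%), and their median was 0.02. At 5d, 20 were up (17.7%, background 16.5%) and 9 down (7.96%, background 16.5%). The excess of falls at 1d was not seen after quantile normalization, with 13 new genes down (11.5%, background 13%) and 8 up (7.08%, background 11.1%). The shares called down at 1h and 6h, 4.42% (background 8.18%) and 7.08% (background 10.4%), were then also below the background. The direction of the new genes as a group at 10d therefore held on the FPKM scale and not after quantile normalization. Centring each library on the median of its EVM genes, a choice made after the data were seen, left the median of the new genes at 10d at -0.58 and called 19 of them up (16.8%, background 24.9%) and 20 down (17.7%, background 29.6%). At 1d it called 37 down (32.7%, background 17.6%). With all 18 libraries, 1, 4, 0, 8 and 9 new genes were up from 1h to 10d, where the backgrounds were 9.97%, 14.1%, 6.5%, 11.7% and 14.1%. The shares of new genes were 0.87%, 3.48%, 0%, 6.96% and 7.83%, each below its background. At 1d with all 18, limma gave 6 of 115 new genes up at an unadjusted p under 0.05, against 240 of all 1093 tested genes. Falls with all 18 numbered 8, 8, 30, 23 and 33, or 6.96%, 6.96%, 26.1%, 20% and 28.7%, against backgrounds of 5.31%, 4.39%, 14.5%, 17.6% and 31.8%. The fall at 1d was thus again furthest above its background. Of the genes called down, 3 of 10 at 1h, 27 of 37 at 1d and 30 of 37 at 10d were also called down with all 18. Without CK-2, 23 new genes were down at 1d, and without CK-3, 3 were up at 6h and 1 at 1d. Without 1d-1, 1 new gene was up at 1d. A pseudocount of 0.1 called 46 new genes down at 10d (40.7%, background 38.7%) and 19 up (16.8%, background 19.9%), near the background.

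**Figure D3:**
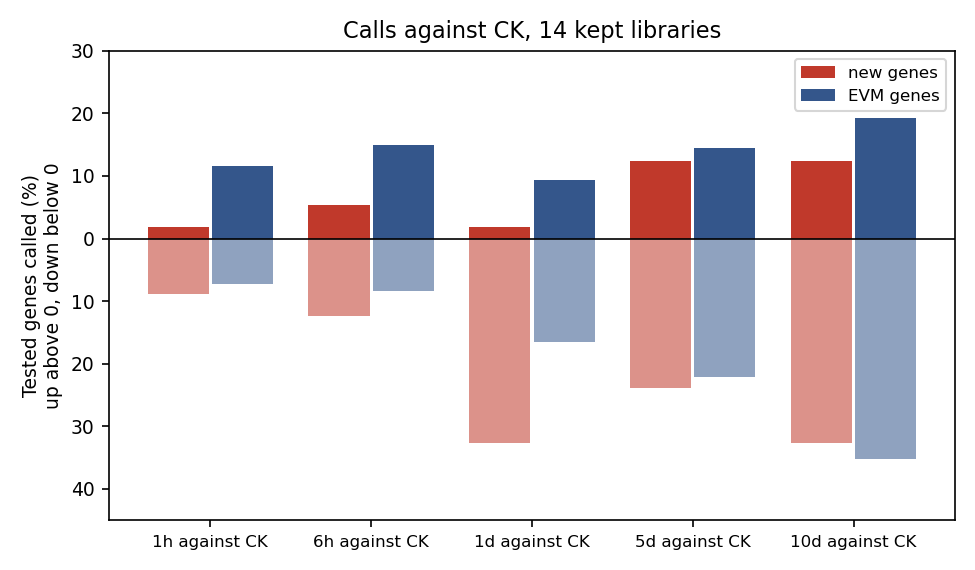
Percent of tested genes called against CK at each time of pine sawdust inducing (14 kept libraries, limma), up above 0 and down below 0, for 113 new genes (left bars) and 975 EVM genes (right bars). The largest gap in falls is at 1d, with 32.7% of new genes and 16.6% of EVM genes called down.

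Without matching for level, the share of genes called against CK at least once was smaller for the new genes than for the EVM genes. Of the 113 tested, 72 (63.7%) were called at 1 or more times, against 792 of 975 EVM genes (81.2%) and a background of 79.4%. Of the tested new genes, 55 were called only down (48.7%, background 40.1%), 13 only up (11.5%, background 34.4%) and 4 in both directions (3.54%, background 4.96%). The EVM genes had 381 called only down (39.1%), 361 only up (37.0%) and 50 in both directions (5.13%). The first time of a call was 1d for 25 of the 72 called new genes (34.7%), against 148 of the 792 EVM genes (18.7%). It was 1h for 12 (16.7%), against 184 EVM genes (23.2%). Over all 18 libraries, 68 of 115 new genes (59.1%) and 752 of 978 EVM genes (76.9%) were called at 1 or more times. Whether level sets this gap was not tested. In the 14 kept libraries, the shares of new genes called were 10.6% (1h), 17.7% (6h), 34.5% (1d), 36.3% (5d) and 45.1% (10d). Those of EVM genes were 18.9%, 23.3%, 25.9%, 36.6% and 54.5%, so the order was the opposite at 1d. A pseudocount of 0.1 brought the 10d shares to 57.5% (new) and 58.8% (EVM). Its 1h shares were 15% (new) and 20.9% (EVM). These comparisons share the CK libraries, so an error in CK enters each of them, and the shares are a description. The differences between successive times leave CK out, though its libraries enter the estimate of the spread. From 1h to 6h, 5 new genes were up (background 12.2%) and 0 down (background 7.54%). At an unadjusted limma p under 0.05, 18 of 113 new genes were down in this step, against 294 of all 1088 tested genes. From 6h to 1d, 1 was up (background 5.24%) and 11 down (background 16.7%). From 1d to 5d, 10 were up (background 11.5%) and 1 down (background 8.36%). Among the called new genes, most were down in the step to 1d and most were up in the step to 5d, with shares below the background. From 5d to 10d, 4 were up (background 2.94%) and 5 down (background 7.44%). With all 18 libraries, limma called 0 new genes from 5d to 10d (background 0.183% up and 0.274% down). At an unadjusted limma p under 0.05, 9 of 115 new genes were up and 9 down. Of all 1093 tested genes, 91 were then up and 217 down. Without 10d-3, 2 new genes were up in this last step. The single rise from 6h to 1d, newGene_1157, was not called when any 1 of CK-2, CK-3, 6h-1, 6h-2, 6h-3 and 1d-2 was left out. From 1h to 6h, 2 new genes were down without 1h-1 or without 6h-3 and 1 without 1h-2. From 1d to 5d, 3 were down without 1d-2 or without 5d-1 and 2 without 1d-1.

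In the 14 kept libraries, 5 new genes were called down at every time, newGene_508, newGene_620, newGene_1037, newGene_1695 and newGene_1753. These were 4.42% of the tested new genes, against 17 EVM genes (1.74%) and a background of 2.02%. All of these but newGene_1037 are in the study's list of genes changed at all times, which was made on these libraries, so their calls are not independent evidence. newGene_1753 had the largest fall at 10d. Its FPKM was 8.40, 7.90 and 7.31 in the 10d libraries, against 13.4, 97.8 and 102 in CK-1, CK-2 and CK-3. CK-1 was thus far below its partners and still above every 10d library. Its log2 difference from CK was -3.51 at that time (SE 0.17, limma adjusted p = 1.03e-09), or -2.57 (SE 0.67, limma adjusted p = 0.00248) with all 18 libraries. At the other times its libraries were at 45.6, 34.4 and 18.6 at 1h, 24.2, 23.8 and 25.9 at 6h, 39.7, 23.5 and 11.7 at 1d, and 29.8, 6.82 and 29.1 at 5d. The left-out library was the lowest of its group at 1h, 1d and 5d. With all 18 libraries, newGene_1753 was called at 10d and at no other time.

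newGene_508 was at an FPKM of 0.176, 0.563 and 0.604 in the 10d libraries, against 3.57, 10.9 and 11.3 in the CK libraries. All 15 PSI libraries, up to 2.91 in 6h-3, lay below all CK libraries. It differed from CK by -1.99 on the log2 scale after 1h (SE 0.23, limma adjusted p = 9.72e-06), and by -3.08 after 10d (SE 0.21, limma adjusted p = 2.03e-08). It was the new gene that all 18 libraries also called at every time. newGene_620 was at 1.55, 1.20 and 1.46 in the 10d libraries, against 5.25, 7.04 and 9.03 in CK-1, CK-2 and CK-3, and again all PSI libraries lay below CK. Its fall was already -1.77 at 1h (SE 0.20) and -1.90 at 10d (SE 0.19, limma adjusted p = 5.16e-07), and its call at 6h was lost with all 18 libraries and without CK-3. newGene_1695 was at 0.484, 0.785 and 0.834 in the 10d libraries, against 2.29, 3.20 and 2.82 in the CK libraries. At these low values its fall was -1.24 (SE 0.20) at 10d, and it was not called at 1h with all 18 libraries or without CK-2 or 1h-2. newGene_1037 was at 0.449, 0.430 and 0.460 in the 10d libraries, against 0.506, 3.78 and 4.12 in CK-1, CK-2 and CK-3, and CK-1 was inside the range of the PSI libraries. newGene_1037 with all 18 libraries was called down at 10d only.

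**Figure D4:**
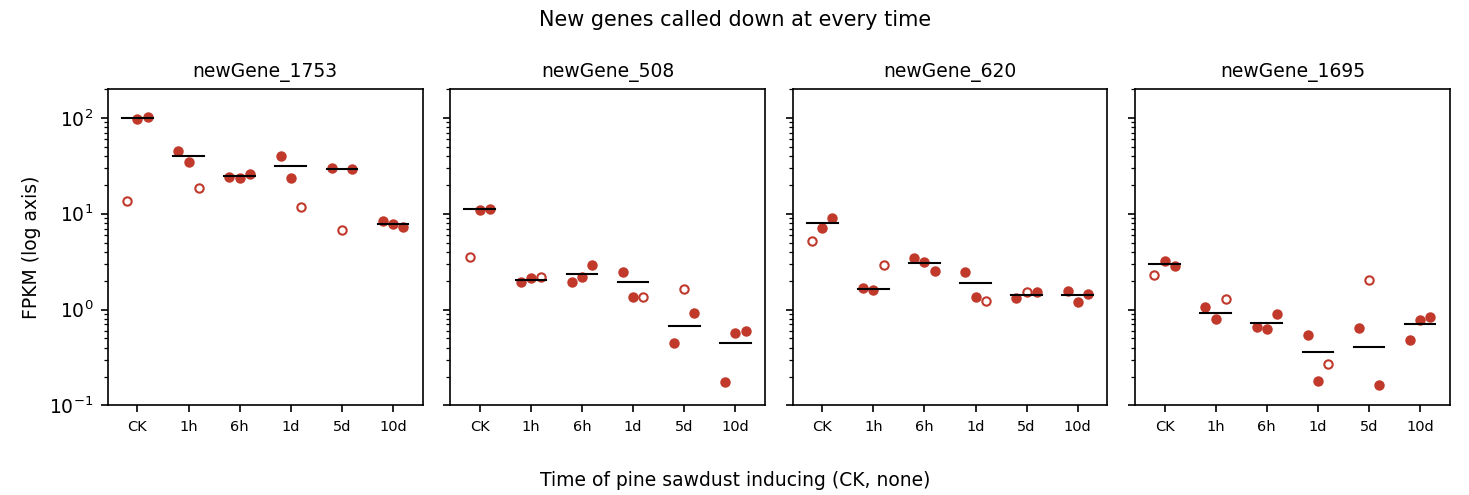
FPKM (log axis) of newGene_1753, newGene_508, newGene_620 and newGene_1695 in each library by time of pine sawdust inducing, with kept libraries as filled circles, left-out libraries as open circles and the mean of the kept libraries as a line. Each gene is highest in CK-2 and CK-3, and CK-1 lies below both for each of them, down to 13.4 for newGene_1753.

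A second pattern was a drop at 1d followed by a rise at 5d. It was shown by newGene_1025, newGene_1026 and newGene_1027, which have consecutive numbers, and by newGene_600. These were the 4 new genes called in both directions against CK. newGene_311, chosen after its values were seen, was also called down at 1d (-1.83, SE 0.20) and up from 1d to 5d (1.31, SE 0.20). Its 5d libraries stayed below CK, and this step was not called with all 18 libraries. The FPKM of newGene_1026 was 22.8, 47.9 and 47.8 in CK, 32.8, 32.0 and 28.1 at 1h and 98.1, 69.8 and 87.7 at 6h. It then was at 3.54, 8.36 and 31.7 at 1d, while 5d had 145, 271 and 125, followed by 238, 270 and 338 at 10d. The 10d libraries were all above the CK libraries, and the 2 kept 1d libraries were the lowest of all 18. Against CK, newGene_1026 changed by -2.91 at 1d (SE 0.26, limma adjusted p = 5.76e-07) and by 2.52 at 10d (SE 0.24, limma adjusted p = 4.06e-07). All 18 libraries called both, at -1.78 (SE 0.51) and 2.86 (SE 0.51). The step from 1d to 5d was 4.38 (SE 0.26, limma adjusted p = 2.15e-08).

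newGene_1025 was at 157, 277 and 316 FPKM at 5d and at 4.26, 6.76 and 29.3 at 1d, and that step was 5.13 (SE 0.53, limma adjusted p = 3.11e-06), the largest between successive times among the new genes. Its 10d libraries were at 255, 291 and 174, against 21.1, 29.1 and 22.3 in the CK libraries, a rise of 3.15 (SE 0.48, limma adjusted p = 3.95e-05). At 6h its libraries differed, with 195 in 6h-3 against 48.3 and 57.3 in 6h-1 and 6h-2, and the call at 6h was lost when any 1 of 10 libraries was left out. Its fall at 1d was not called with all 18 libraries or when any 1 of CK-2, CK-3, 1d-1 and 1d-2 was left out. newGene_1027 was at 3.27, 3.56 and 4.59 at 1d, below all other libraries, and at 45.8, 41.9 and 43.3 at 5d. Its CK libraries were at 10.4, 16.8 and 9.72. Against CK, it differed by -1.65 at 1d (SE 0.19), by 1.72 at 5d (SE 0.19) and by 1.44 at 10d (SE 0.17). All 18 libraries called each of these differences. newGene_600 was at 1.81, 1.14 and 2.35 at 1d, against 6.18, 10.3 and 9.22 in CK, a log2 difference of -2.13 (SE 0.22, limma adjusted p = 1.95e-06). At 5d it was at 22.4, 10.6 and 23.1, and the rise against CK, 1.15 (SE 0.22), was not called with all 18 libraries. The left-out library 1d-3 lay above its kept partners for each of these 4 genes.

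**Figure D5:**
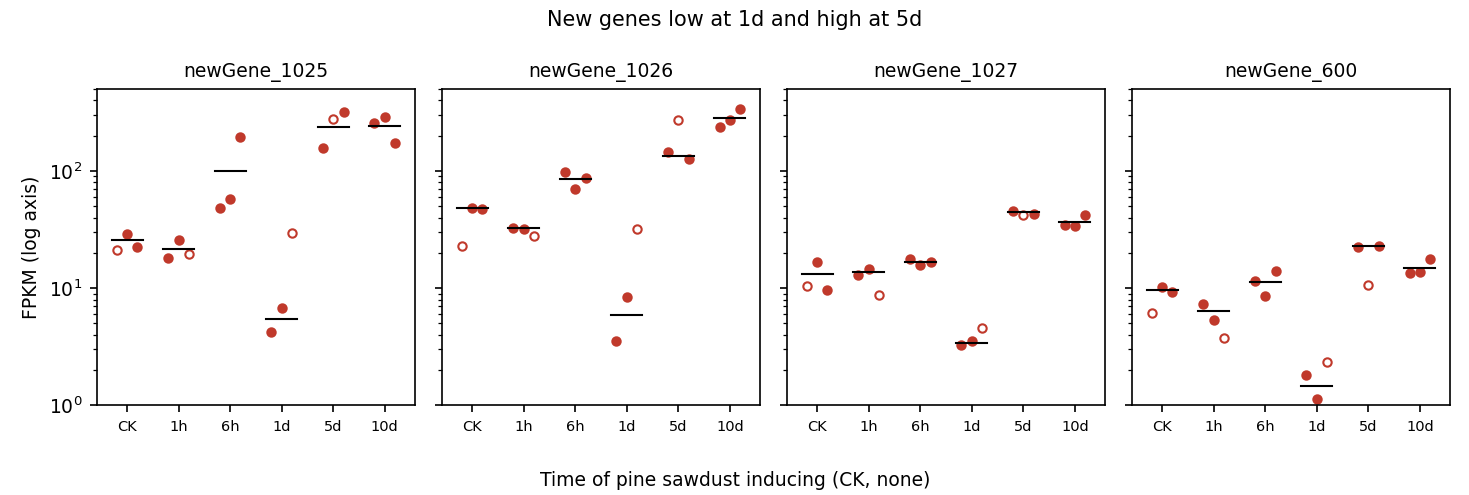
FPKM (log axis) of newGene_1025, newGene_1026, newGene_1027 and newGene_600 in each library by time of pine sawdust inducing, with kept libraries as filled circles, left-out libraries as open circles and the mean of the kept libraries as a line. For each gene the kept 1d libraries are the lowest of all, such as 3.27 and 3.56 for newGene_1027.

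The 8 runs of consecutive numbers among the new genes held 19 genes. Over the 18 libraries, Pearson's r on the log2 scale was 0.94 between newGene_1025 and newGene_1026, 0.91 between newGene_1025 and newGene_1027 and 0.92 between newGene_1026 and newGene_1027. The other runs did not go together to this degree. Over the 14 pairs of genes within runs r lay between 0.25 and 0.94, with a median of 0.53, and the median over all 6555 pairs of new genes was 0.26. Pairs share libraries and groups, so these values are descriptions. newGene_850 and newGene_852 had an r of 0.79, and newGene_851 between them had an r of 0.27 and 0.25 with them. Whether consecutive numbers mark neighbours in the genome is not given in the sources used here.

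Other new genes were up at 10d, some of them also at earlier times. newGene_852 was at 27.5, 27.8 and 23.5 FPKM in the 10d libraries, against 8.94, 3.55 and 4.74 in CK-1, CK-2 and CK-3, and its rise of 2.41 at 10d (SE 0.14) had a limma adjusted p of 3.35e-09. All 18 libraries called it at 5d and 10d. At 1h its difference of 0.98 (SE 0.15, limma adjusted p = 0.000104) stayed under the fold threshold. newGene_850 was at 38.1, 37.5 and 37.6 in the 10d libraries, against 10.8, 13.0 and 10.9 in CK, a rise of 1.58 (SE 0.23, limma adjusted p = 2.43e-05). At 5d its left-out library was at 9.27 while the kept ones were at 27.3 and 28.3, and the rise at 5d was not called with all 18 libraries or without CK-3. newGene_1728 was called up at 1h, 6h, 5d and 10d and rose most at 5d, with 17.0, 5.79 and 14.1 against 1.23, 1.27 and 0.196 in CK, a log2 difference of 3.32 (SE 0.38, limma adjusted p = 3.95e-06). At 10d it was at 4.46, 4.79 and 4.62 and still up by 1.77 (SE 0.35), and the fall from 5d to 10d, -1.55 (SE 0.35), was not called with all 18. Its call at 1h was lost without CK-3, without 1h-2 and with all 18, and that at 6h without CK-3. newGene_1518 was at 3.60, 2.02 and 2.82 at 5d, against 0.936, 0.356 and 0.481 in CK, and at 1.68, 2.05 and 2.09 at 10d. Its rise was 1.57 (SE 0.18) at 5d and 1.05 (SE 0.16) at 10d, where the call was lost with all 18 and without CK-2. newGene_712 was at 2.68, 1.93 and 2.71 at 10d, against 0.978, 0.774 and 0.546 in CK, and all PSI libraries lay above all CK libraries. It was called up at 1d, 5d and 10d, and the call at 5d alone was kept with all 18 libraries and without CK-3. newGene_787 was at 3.63, 3.18 and 4.12 at 10d, against 2.02, 0.837 and 2.09 in CK, and its difference of 0.96 (SE 0.23) stayed under the fold threshold and passed it without CK-3 or without 10d-2. newGene_850, newGene_852, newGene_1025, newGene_1026, newGene_1027, newGene_1518, newGene_1728 and newGene_787 are in the study's list of co-expressed genes that changed at 10d in these libraries, so their direction there is not independent evidence. Also up at 10d, and named after their values were seen, were newGene_530, newGene_1099, newGene_1544 and newGene_1675, with log2 differences of 1.24, 1.03, 1.00 and 1.06. With all 18 libraries these were 1.13, 0.96, 1.01 and 0.79, and newGene_1099 and newGene_1675 were not called.

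The 2 most abundant new genes were newGene_289 and newGene_536. Much of the summed level of the new genes came from them. The new genes made up 1.25% to 2.84% of the summed FPKM of the table in the PSI libraries and 1.34% to 1.66% in the CK libraries. Without these 2 genes the shares were 0.28% to 0.71% with PSI and 0.51% to 0.69% in CK. newGene_289 was at 1914, 1974 and 1948 FPKM in the 10d libraries, against 907, 351 and 326 in CK-1, CK-2 and CK-3, a rise of 2.52 (SE 0.17, limma adjusted p = 1.71e-08). All 18 libraries called it at 6h and 10d. Its course was not steady, with 456, 754 and 1095 at 1h, 2004, 1822 and 1883 at 6h and 1001, 1363 and 1223 at 1d. The 5d libraries were at 786, 2485 and 838. The left-out libraries CK-1 and 5d-2 were each over 2-fold above their partners, and the rise from 5d to 10d, 1.26 (SE 0.17), was not called with all 18. newGene_536 was at 458, 1164 and 489 at 10d, against 382, 333 and 390 in CK, and was called at no time. Single libraries stood out for it, 1164 in 10d-2 and 1089 in 1h-1, where 1h-2 and 1h-3 were at 325 and 257. newGene_1157, also among the 5 most abundant, was at 76.6, 93.2 and 111 at 10d, against 29.8, 60.7 and 32.8 at 5d, a step of 1.54 (SE 0.27) that was not called with all 18. Its step from 6h to 1d, 1.01 (SE 0.27), was called with all 18.

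By group mean, 8 new genes were highest at 1h (6.96%, EVM genes 17.3%) and 6 at 6h (5.22%, EVM genes 17%). At 1d it was 1 new gene (0.87%, EVM genes 9.44%). These shares were not compared at matched level. newGene_1377 was at 19.2, 20.2 and 23.7 FPKM in the 6h libraries, against 6.23, 5.47 and 4.75 in CK, a rise of 1.84 (SE 0.18, limma adjusted p = 8.86e-07) that all 18 libraries also called. By 10d it was at 6.33, 5.06 and 6.77. newGene_391 was at 6.46, 8.09 and 8.37 at 6h and at 0.647, 0.785 and 0.617 at 1h, and that step was 2.33 (SE 0.32, limma adjusted p = 2.93e-05). Its CK libraries were at 1.18, 5.60 and 3.90, and its falls against CK at 1h and 10d were not called with all 18 or without CK-2. The call at 10d (limma adjusted p = 0.00998) was lost when any 1 of 12 of the 14 kept libraries was left out. newGene_851 was at 25.9, 34.7 and 31.9 at 1h, against 9.16, 7.47 and 1.57 in CK, a rise of 2.73 (SE 0.47, limma adjusted p = 0.000298) that all 18 libraries called. Its calls at 6h, 5d and 10d were lost with all 18, without CK-3, the library at 1.57, and without some other single libraries. The falls of newGene_1278 and newGene_597 came late. newGene_1278 was at 4.35, 4.39 and 3.97 at 10d, against 6.13, 22.1 and 21.8 in the CK libraries, a difference of -2.13 (SE 0.11, limma adjusted p = 1.71e-09). newGene_597 was at 0.850, 1.82 and 0.392 at 10d, against 1.99, 7.82 and 8.70 in the CK libraries, a difference of -2.26 (SE 0.27, limma adjusted p = 3.97e-06). All 18 libraries called both at 10d.

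For the new genes in the study's lists, the EVM gene with the most similar course was found by Pearson's r on the log2 scale over the 18 libraries. The points share libraries and groups, and a high r says nothing of shared function. Each r is the highest over 985 EVM genes. The EVM genes given here with a product are in the same list as their new gene. Those lists were made on these data, so a high r with them is not independent evidence. newGene_1753 was most like EVM0012432, annotated as a sugar transporter, a membrane protein that carries sugars into the cell, with an r of 0.98. newGene_852 was most like EVM0010522 (r 0.94), annotated as a GMC oxidoreductase, a flavin enzyme family that oxidizes alcohols and sugars. newGene_850 was most like EVM0003801 (r 0.91), annotated as a nitronate monooxygenase, which breaks down nitroalkane anions. newGene_1025 was most like EVM0002057 (r 0.88), annotated as a flavin-binding monooxygenase. The next EVM gene was close behind, at r 0.928 for newGene_852 (EVM0008769), 0.9 for newGene_850 (EVM0012650) and 0.877 for newGene_1025 (EVM0004207). Over the 14 kept libraries, EVM0008769 was closer to newGene_852 than EVM0010522 was (r 0.965 against 0.938). There EVM0012650 was also closer to newGene_850 than EVM0003801 was (r 0.925 against 0.912). newGene_508 was most like EVM0004412 (r 0.95) and newGene_620 most like EVM0007340 (r 0.93), both of which the study's annotation matches to hypothetical proteins of other fungi. For newGene_787, newGene_1026, newGene_1027, newGene_1518, newGene_1695 and newGene_1728 the closest EVM gene had no product in the study's lists, with r between 0.84 and 0.95.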

How the data were processed

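RNA-seq libraries of 6 groups with 3 libraries each were used. Expression was taken as FPKM from the deposited table of 1100 genes, whose header names no unit. It was computed by the authors before deposit. Per the paper's methods, reads were mapped with HISAT2 and assembled with StringTie, and RSEM is named for quantification. Bowtie 0.12.2 is listed too in the submitters' processing notes. No genome build is given in the sources used here. FPKM values hold no counts, and the read depth behind each gene was not used, so errors come from the spread between libraries alone.

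limma 3.58.1 in R 4.3.3 fitted log2(FPKM + 1) in all 6 groups of the 14 kept libraries with a variance trend, for 1088 genes. The fit was tested on simulated data. The authors used DESeq2, which needs counts. Means and shares were computed with Python 3.11.15. Alternatives were all 18 libraries, quantile normalization, no filter, a pseudocount of 0.1, other thresholds, a fit of only the groups compared, a replicate block, each kept library left out, and, added after the data were seen, CK-1 added to the kept libraries and centring on the EVM median. Named genes were the new genes in the study's lists, those called at all 5 times or in both directions, the 5 highest, runs of consecutive numbers with every r over 0.9, and the 2 largest called rises and falls per comparison among those whose groups did not overlap. Exceptions are marked. The members and lists were chosen with earlier results of these data known.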

Additional observations from a re-analysis of the deposited data

How the results depend on the processing

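The read depth behind each FPKM value is unknown, and 4 of the 6 groups kept 2 libraries, so the spread within groups rests mostly on pairs. The cause of each shift below was not tested. Counts are of new genes called, against CK unless a step is named. A count without its background here or above shows only how it moved with the setting. With all 18 libraries, 1 was up at 1h, 8 down at 6h, 0 up at 1d, 8 up at 5d, 9 up at 10d and 3 up from 1h to 6h, with 0 down from 1d to 5d and 0 up and 0 down from 5d to 10d. Quantile normalization gave 5 up and 5 down at 1h, 8 down at 6h, 8 up and 13 down at 1d, 9 down at 5d, 28 up and 9 down at 10d and 3 down from 5d to 10d, with medians of -0.13, -0.10, -0.21, -0.026 and 0.024 from 1h to 10d, the last of them reversed. A pseudocount of 0.1 gave medians of -0.62, -0.74, -1.25, -0.91 and -1.26, and 5 up at 1h (4.42%, background 11.4%). From 1h to 6h it gave 9 up (7.96%, background 13.1%) and 2 down (1.77%, background 7.9%). From 6h to 1d it gave 18 down (15.9%, background 18.5%). With no fold threshold, 6 were up and 25 down at 1h, 31 down at 6h, 5 up at 1d and 61 down at 10d, and in the steps 11 up and 6 down from 1h to 6h, 3 up and 19 down to 1d, 19 up and 2 down to 5d, and 7 up to 10d. With CK-1 added to the kept libraries, 6 were down at 1h (5.31%, background 4.5%, median -0.44) and 8 down at 6h (7.08%, background 4.6%). Then 1 was up at 1d (0.885%, background 8.46%) and 9 up at 10d (7.96%, background 15.3%). In the steps, 0 were up from 6h to 1d (background 4.41%) and 0 down from 1d to 5d (background 7.08%). From 5d to 10d, 2 were up (1.77%, background 2.3%) and 3 down (2.65%, background 5.51%). Centring on the EVM median gave 22 down at 1h (19.5%, background 11%, median -0.65) and 22 down at 6h (19.5%, background 14.2%, median -0.69). It gave 20 down at 10d (17.7%, background 29.6%, median -0.58) and 1 down from 1h to 6h (0.885%, background 8.92%). An adjusted p under 0.05 gave 1 down from 1h to 6h, and a fit of only the 2 groups compared gave 0 up from 6h to 1d. Fitting the replicate block left 1 up at 1d. It moved no other count by more than 1.5 times. Over 45 pairs of libraries with one number in different groups, r of the deviations from group means was -0.55 to 0.45 (median -0.03), and 2 libraries were closest to one of their own number, so the numbers were not taken to pair libraries.

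Leaving out 1 kept library gave 2 to 3 up and 9 to 12 down at 1h (medians -0.52 to -0.46), 3 to 6 up and 10 to 17 down at 6h (-0.48 to -0.46), 1 to 3 up and 23 to 38 down at 1d (-0.82 to -0.78), 10 to 14 up and 20 to 28 down at 5d (-0.66 to -0.60), and 11 to 15 up and 29 to 38 down at 10d (-0.80 to -0.76). For the steps it gave 4 to 6 up and 0 to 2 down from 1h to 6h, 0 to 1 up and 10 to 14 down to 1d, 10 to 14 up and 1 to 3 down to 5d, and 2 to 5 up and 4 to 5 down to 10d. For the named genes no difference that was called changed its sign under any alternative. Their 127 differences recomputed include ones not called, such as those of newGene_536, which had no call to lose. Among the called ones, 32 lost the call with all 18 libraries, 25 with CK-1 added and 11 with quantile normalization. These numbers are thus not shares of the 127.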

Other observations

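One new gene was listed at exactly 0 in most libraries, and 12 others in 1 to 4 of them. The gene at 0 in most, newGene_1364, chosen after its values were seen, was at 0 in 11 of 18 libraries. It was at 2.52 and 2.27 FPKM in 10d-2 and 10d-3 and at 0 in 10d-1, against 1.96, 2.56 and 2.10 in CK-1, CK-2 and CK-3. At 1h and 5d it was at 0 in every library, at 6h at 1.24 in 6h-1 alone and at 1d at 1.17 in 1d-3 alone. No new gene was at 0 in a CK library, and each PSI library had 1 to 4 new genes at 0. newGene_306, also chosen so, was at 0 in 1h-1, 1d-3, 5d-1 and 5d-2, at 0.0687, 0.295 and 0.340 in the 10d libraries, and at 1.91, 1.68 and 1.90 in CK. newGene_304, likewise, was at 0.407, 0.612 and 1.56 at 1d, against 4.88, 2.48 and 8.36 at 6h, and its fall in that step was -1.94 (SE 0.41, limma adjusted p = 0.00127).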
